A study of Mus musculus with 10 samples.

Results

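Interferon-stimulated genes are the genes that a cell switches on when interferon reaches its surface, and 43 of them were followed here in 10 populations of mouse embryonic fibroblasts. The members were the 43 mouse symbols of a given list, joined to the raw count table through their Ensembl identifiers, and 43 of 43 were found and tested, out of 26401 genes in the table and 12964 tested. The cells were immortalized fibroblasts of strain C57Bl/6N that carry the mitochondrial DNA mutation m.5024C>T, a C-to-T change in the gene for the mitochondrial alanine tRNA. The populations of the high heteroplasmy group, in which a large share of the mitochondrial genomes is mutant, are here called high 1 to high 5. The populations of the low heteroplasmy group are here called low 1 to low 5, and each population has a clone number of its own in the labels. Both groups carry the mutation, no population without it was analysed here, and the labels give no heteroplasmy value for any clone. All populations grew without treatment in high-glucose medium with serum and uridine, and the labels name no added interferon. Each library is 1 clone, and the labels do not say how the clones were derived or immortalized, so differences between groups and differences between clones rest on the same 10 cultures.

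Interferons are secreted proteins that signal that a virus or a misplaced nucleic acid has been sensed. Type I interferons bind the receptor made of Ifnar1 and Ifnar2, whose kinases Jak1 and Tyk2 phosphorylate proteins of the STAT family. STAT2 and IRF9 are subunits of the resulting factor ISGF3, which binds a short DNA element, the interferon-stimulated response element, in front of its target genes. The targets encode proteins that block viral entry, degrade or sequester viral RNA, stop translation or call in immune cells, and they also encode STAT2, IRF9 and IRF7, so that the pathway amplifies itself. Fibroblasts carry the receptor and are a classic responding cell, and DNA or RNA released from mitochondria is one known trigger of the pathway.

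Promoter sequences of 6 members are shown. Isg15, Ifit1, Ifit3 and Ifit3b are among the members with at least 2 copies of the response element core, and the others of that kind are not shown. Cxcl10, Rsad2 and Ifit2 passed the test between groups given below. Ifit2 had no match to the core in either of its windows and is not shown. RefSeq start sites on GRCm38.p6 were available for 33 of the 43 members. The element's core, a pair of GAAA with any 2 bases between them, searched on both strands in the 250 bases before the start, was found in 16 of these 33 members (48.5%) and in 978 of 32851 windows of the same length over all genes (2.98%). At least 2 copies, which may overlap, stood in front of 8 members (Bst2, Gbp3, Ifit1, Ifit3, Ifit3b, Irgm1, Isg15 and Oas1a) and in 0.18% of all windows. The STAT dimer core TTCNNNGAA, which reads the same on both strands, was found in 7 members (21.2%) and in 7.02% of all windows. The member shares count genes, some with several windows, while the shares over all genes count windows. Of the 39 member windows, 16 held the response element core and 7 the STAT dimer core. The windows printed are chr4:156200819-156201068 (minus strand) for Isg15, chr19:34640639-34640888 (plus strand) for Ifit1, chr19:34583279-34583528 (plus strand) for Ifit3, chr19:34607707-34607956 (plus strand) for Ifit3b, chr5:92348890-92349139 (minus strand) for Cxcl10 and chr12:26456453-26456702 (minus strand) for Rsad2. They are written 5′ to 3′ on the gene's strand, ending at the base before the start, with matches to this core on either strand in capitals.
Isg15: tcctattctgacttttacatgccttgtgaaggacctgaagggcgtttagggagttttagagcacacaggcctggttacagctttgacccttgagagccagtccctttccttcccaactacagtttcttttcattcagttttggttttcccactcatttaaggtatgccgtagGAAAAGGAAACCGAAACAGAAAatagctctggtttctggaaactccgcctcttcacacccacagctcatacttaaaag
Ifit1: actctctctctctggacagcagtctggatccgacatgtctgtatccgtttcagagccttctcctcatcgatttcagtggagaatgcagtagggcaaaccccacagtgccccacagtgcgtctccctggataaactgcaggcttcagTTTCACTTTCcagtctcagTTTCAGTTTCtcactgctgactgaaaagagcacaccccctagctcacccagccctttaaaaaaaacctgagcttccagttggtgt
Ifit3: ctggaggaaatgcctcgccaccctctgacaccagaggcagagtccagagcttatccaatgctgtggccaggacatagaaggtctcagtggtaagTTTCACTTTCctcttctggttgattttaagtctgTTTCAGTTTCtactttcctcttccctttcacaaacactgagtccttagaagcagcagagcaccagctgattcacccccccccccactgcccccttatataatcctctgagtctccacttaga
Ifit3b: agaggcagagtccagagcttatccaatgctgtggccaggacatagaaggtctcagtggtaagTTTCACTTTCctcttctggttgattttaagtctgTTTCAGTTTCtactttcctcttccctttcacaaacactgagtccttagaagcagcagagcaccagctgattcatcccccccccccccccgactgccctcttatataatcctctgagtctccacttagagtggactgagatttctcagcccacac
Cxcl10: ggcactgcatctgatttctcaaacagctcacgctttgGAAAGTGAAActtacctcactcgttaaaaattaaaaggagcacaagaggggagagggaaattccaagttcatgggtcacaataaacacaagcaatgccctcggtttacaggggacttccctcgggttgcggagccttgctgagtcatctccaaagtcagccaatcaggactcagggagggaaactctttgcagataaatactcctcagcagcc
Rsad2: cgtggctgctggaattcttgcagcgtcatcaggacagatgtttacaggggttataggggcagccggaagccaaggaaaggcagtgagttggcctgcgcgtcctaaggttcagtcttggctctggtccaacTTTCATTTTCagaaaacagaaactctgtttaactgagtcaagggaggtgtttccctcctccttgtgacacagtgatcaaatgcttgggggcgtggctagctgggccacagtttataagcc
In Isg15 the matches begin 78, 72 and 66 bases before the start and overlap. Ifit1 has its matches at 104 and 85 bases, Ifit3 at 156 and 122, and its near copy Ifit3b at 188 and 154. Cxcl10 has 1 match at 213 bases and Rsad2 has 1 at 120. A match of these letters is a description of the sequence and no evidence of binding.

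Levels of these genes differed widely between clones of the same heteroplasmy group. Levels are given in CPM, the read count of a gene scaled by its library's total and TMM factor, and each gene was first centred on its own mean log2 CPM. The median member stood 2.60 above its own average over the libraries on the log2 scale in low 4, 2.17 above it in low 3 and 1.26 above it in low 2. The same median was -0.19 in low 1 and -1.61 in low 5. In the high group it was 0.27 in high 4, 0.02 in high 2, -0.26 in high 1, -1.35 in high 3 and -2.86 in high 5. So 3 of the 5 low clones were high, low 1 stood among the high group, and low 5 was the second lowest library of all. In RNA from whole cultures, a few cells with a high level cannot be told apart from many cells with a modest one.

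That order was shared by nearly all members. Low 4 held the highest level of 36 members, low 3 of 6 and low 2 of 1. High 5 held the lowest level of 33 members, low 5 of 7 and high 3 of 3. Over all tested genes, low 4 was the highest library for 10.3% and high 5 the lowest for 14.7%. For 39 members low 2, low 3 and low 4 all exceeded every high library, an arrangement seen in 7.74% of all tested genes. Low 1 lay inside the range of the high libraries for 37 members (64.4% of all tested genes) and low 5 for 35 (63.6%). Low 5 was below every high library for the 7 members whose lowest level it held, an arrangement seen in 18.1% of all tested genes.

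**Figure D1:**
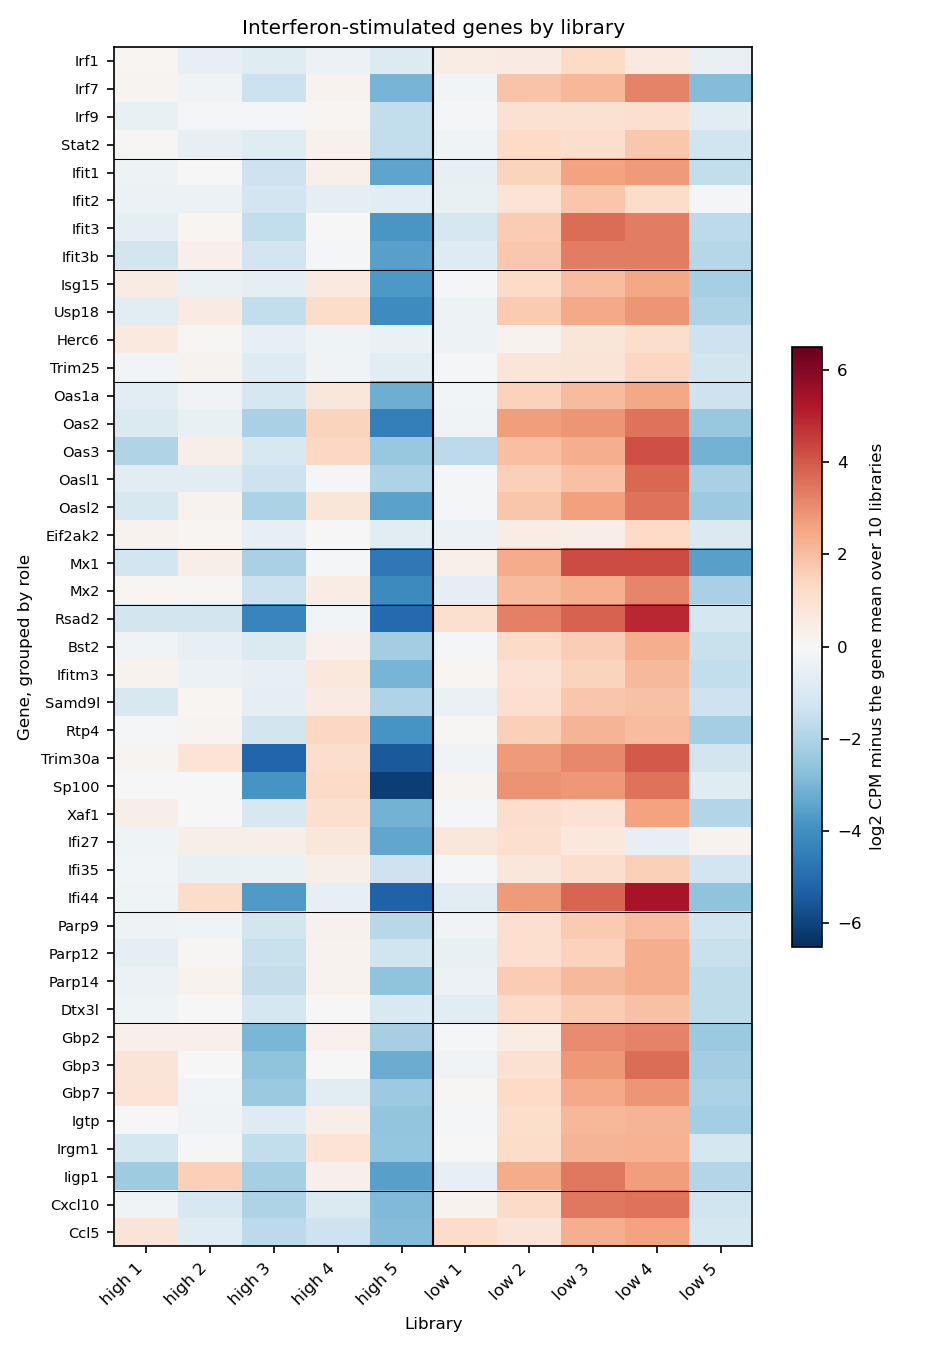
Level of each of the 43 genes (rows, grouped by role) in each library (columns), as the log2 CPM minus that gene's mean over the 10 libraries, with red above and blue below. Low 2, low 3 and low 4 are red for nearly every gene, and high 5, high 3 and low 5 are blue.

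Against this spread, the test between groups called few members. The quasi-likelihood test of edgeR was run on all 12964 genes, with p-values adjusted over all of them by Benjamini-Hochberg. With edgeR, 3 of 43 passed an adjusted p of 0.05 as lower in high heteroplasmy (Rsad2, Cxcl10 and Ifit2), against 2.87% of all tested genes. None of the 43 was called higher, against 1.99% of all genes, and none reached an unadjusted p of 0.05 in that direction with edgeR (10.6% of all genes). DESeq2 and limma-voom also called none higher, against 4.56% and 1.74% of the genes they tested. The log2 fold change, high over low, was below 0 for 43 of 43 members (47.7% of all genes), with a median of -1.90 against 0.02 over all genes. A mean at least 2-fold lower was fitted for 37 members (5.62% of all genes). At an unadjusted p of 0.05, 30 members were lower (11% of all genes). No member had all 5 high libraries below all 5 low libraries, an arrangement seen in 4.17% of all genes. The members share 3 high-level clones, so the 43 values are not independent of each other.

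The count of calls depends on the tool and on single clones. DESeq2 called 14 members lower (5.65% of the genes it tested) and limma-voom none (3.36% of all genes), with 8 members at its unadjusted p of 0.05. The share of all genes at that p was not computed for limma-voom. At an adjusted p of 0.1, edgeR gave 6 members lower (5.43% of all genes), the others being Irf1, Mx1 and Oasl1. Leaving out 1 library at a time gave between 0 and 5 calls, with Rsad2 kept in 2 of 10 such fits, Cxcl10 in 1 and Ifit2 in 2. Members were far more variable within groups than other genes, with a median within-group SD of log2 CPM of 1.64 against 0.37 over all genes and a median edgeR dispersion of 0.667 against 0.083.

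Of the transcription factors that drive the response, 4 of 4 were lower in high heteroplasmy at an unadjusted edgeR p under 0.05. At that p 11% of all genes were lower. After adjustment 0 of the 4 passed with edgeR or limma-voom, while DESeq2 called 1. Irf7, the factor that amplifies type I interferon production, was at 138, 105, 47.1, 143 and 15.1 CPM in high 1 to high 5 and 108, 442, 557, 1165 and 17.7 CPM in low 1 to low 5. Its 3 high-level clones were low 2, low 3 and low 4, and low 5 was close to high 5, so the groups overlapped (log2 fold change -2.35, SE 0.92, adjusted p = 0.164). Stat2, a subunit of ISGF3, was at 143, 94.1, 78.5, 166 and 45.4 CPM in high 1 to high 5 and 115, 334, 306, 455 and 55.9 CPM in low 1 to low 5 (log2 fold change -1.26, SE 0.53, adjusted p = 0.195). Irf9, the DNA-binding subunit of ISGF3, was at 69.2, 88.5, 87.6, 104 and 32.4 CPM in high 1 to high 5 and 89.95, 191, 195, 211 and 58.5 CPM in low 1 to low 5 (log2 fold change -0.96, SE 0.39, adjusted p = 0.177). For both ISGF3 subunits low 2, low 3 and low 4 lay above the 7 other libraries. Irf1, which interferon-gamma and other inflammatory signals also drive, was at 112, 71.3, 59.2, 79.3 and 55.6 CPM in high 1 to high 5 and 144, 146, 249, 158 and 72.4 CPM in low 1 to low 5 (log2 fold change -1.03, SE 0.30, adjusted p = 0.0702). Irf1 had the narrowest range of all members, 2.16 on the log2 scale, and here low 1 too exceeded every high library.

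Rsad2 (viperin), a radical SAM enzyme that makes a chain-terminating nucleotide, had the largest log2 fold change of the members. Its gene (ENSMUSG00000020641, GRCm38 chr12:26442746-26456452, minus strand) was at 11.6, 11.7, 1.29, 24.2 and 0.732 CPM in high 1 to high 5 and 55.7, 261, 392, 821 and 12.03 CPM in low 1 to low 5. Low 1 to low 4 exceeded every high library and low 5 lay inside the high range (log2 fold change -4.97, SE 1.23, adjusted p = 0.045). Cxcl10, the chemokine that draws CXCR3-bearing T cells, lies at chr5:92346638-92348889, minus strand, and was at 76.9, 43.7, 22.4, 47.8 and 12.5 CPM in high 1 to high 5 and 108.9, 219, 974, 1052 and 36.7 CPM in low 1 to low 5. Low 3 and low 4 stood far above the rest, and low 5 lay below 3 of the high clones (log2 fold change -3.56, SE 0.89, adjusted p = 0.047). Ifit2, of the family that binds viral RNA ends, lies at chr19:34550694-34576419, plus strand, and was at 83.9, 84.3, 46.3, 73.8 and 68.2 CPM in high 1 to high 5 and 78.8, 204, 391, 257 and 104 CPM in low 1 to low 5. The high clones were close together here, and low 2 to low 5 exceeded them all while low 1 did not (log2 fold change -1.54, SE 0.39, adjusted p = 0.0487). DESeq2 gave these genes adjusted p of 0.000325 for Rsad2, 0.00135 for Cxcl10 and 0.00267 for Ifit2, and limma-voom gave 0.0882, 0.0981 and 0.0803.

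**Figure D2:**
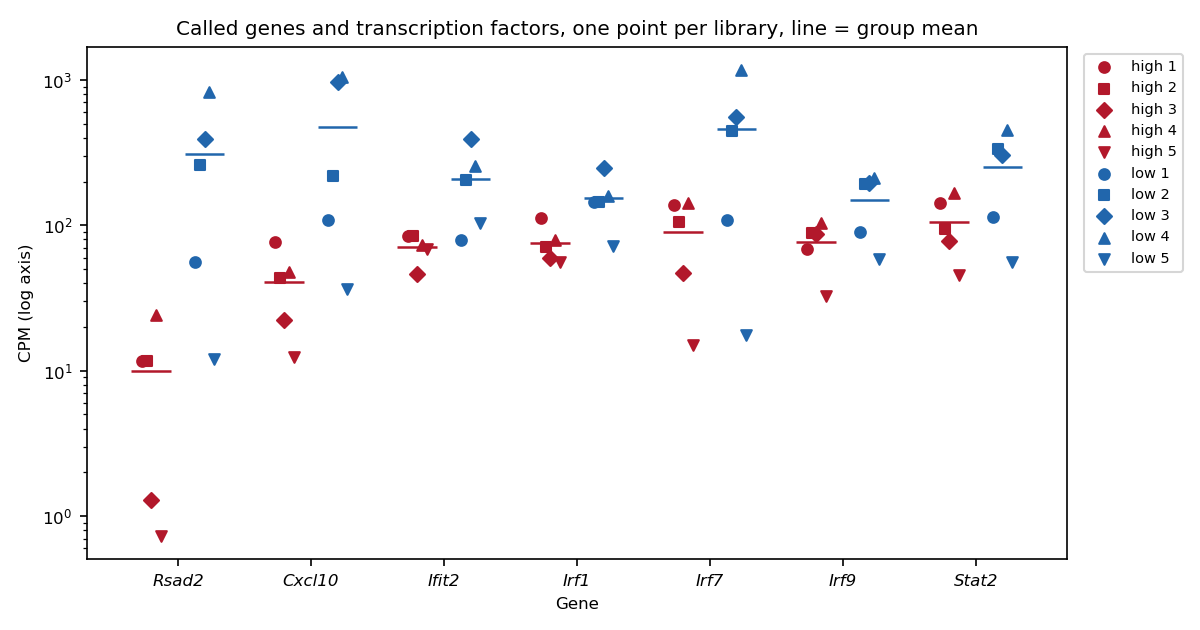
Levels in CPM (log axis) of the 3 called genes and the 4 transcription factors, with a symbol per library, high libraries in red, low libraries in blue and a line at each group's mean. Low 2, low 3 and low 4 lie above every high library for all 7 genes, while low 5 lies among the high libraries for all but Ifit2.

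The other IFIT genes were high in the same clones. Ifit3, of the same RNA-binding family, was at 44.6, 73.1, 22.1, 65.98 and 4.79 CPM in high 1 to high 5 and 31.7, 211, 835, 671 and 20.7 CPM in low 1 to low 5. Low 3 exceeded low 4 here, and the lowest and highest libraries were 7.42 apart on the log2 scale (log2 fold change -3.07, SE 1.04, adjusted p = 0.116). Ifit1, which clamps RNA lacking cap methylation, averaged 97.3 ± 64.4 CPM in the high group and 455 ± 408 CPM in the low group (SD, n = 5 each). Ifit3b averaged 14.3 ± 10.6 CPM in the high group and 109.4 ± 110 CPM in the low group (SD, n = 5 each). Ifit3 and Ifit3b cannot be fully separated, since 97.4% of the Ifit3 transcript matches Ifit3b at 97.8% identity and the counting tool's treatment of shared reads is not given. All 4 IFIT genes had an unadjusted p under 0.05 with edgeR (11% of all genes were lower at that p), with a median log2 fold change of -2.58. After adjustment edgeR called 1 of the 4, DESeq2 3 and limma-voom 0.

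In the ISG15 system the ubiquitin-like protein ISG15 is joined to other proteins, and none of the 4 members grouped under it passed the test. None of the 4 reached even an unadjusted p of 0.05 with edgeR, and DESeq2 and limma-voom called none of them. The 4 do not cover the system, since its enzymes Uba7 and Ube2l6 are not members. DESeq2 called Uba7 lower (log2 fold change -1.63 with edgeR, DESeq2 adjusted p = 0.0336) and not Ube2l6 (DESeq2 adjusted p = 0.229). Neither was called by edgeR or limma-voom. Isg15 itself, among the most abundant members, averaged 236 ± 160.2 CPM in the high group and 701 ± 596 CPM in the low group (SD, n = 5 each). Usp18, which removes ISG15 and also blocks the receptor, averaged 50.3 ± 48.7 CPM in the high group and 182 ± 162 CPM in the low group (SD, n = 5 each). Herc6, the mouse ISG15 ligase, had the smallest change of all members, from 17.2 to 39.5 CPM in the high group and from 9.85 to 54.8 CPM in the low group (log2 fold change -0.38, SE 0.41, adjusted p = 0.651). Trim25, a ubiquitin ligase of the RNA-sensing pathway, averaged 80.4 ± 24.7 CPM in the high group and 148 ± 82.9 CPM in the low group (SD, n = 5 each) (log2 fold change -0.88, SE 0.41, adjusted p = 0.24). Part of Isg15 (63.8% of its transcript) matches the gene model AC151275.1 at 95.2%, so its reads may be split.

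The 2'-5'-oligoadenylate synthetases make the second messenger that turns on RNase L, and with Eif2ak2 (PKR, which stops translation on double-stranded RNA) they formed a group of 6 with a median log2 fold change of -2.56. With edgeR 4 of the 6 had an unadjusted p under 0.05 (11% of all genes were lower at that p). After adjustment edgeR called 0, DESeq2 1 and limma-voom 0. Oas2 was at 8.23, 11.4, 3.63, 42.99 and 0.632 CPM in high 1 to high 5 and 13.6, 106, 116, 185 and 2.78 CPM in low 1 to low 5 (log2 fold change -2.66, SE 1.14, adjusted p = 0.203). Oas3, which senses long double-stranded RNA, was at 5.84, 30.6, 11.3, 59.8 and 4.09 CPM in high 1 to high 5 and 7.12, 90.6, 118, 418 and 2.72 CPM in low 1 to low 5 (log2 fold change -2.51, SE 1.19, adjusted p = 0.25). Low 4 stood far above low 3 for Oas3, and low 5 was the lowest library. Oasl2 was at 47.7, 117, 24.1, 173 and 8.82 CPM in high 1 to high 5 and 91.3, 348, 638, 1159.6 and 19.3 CPM in low 1 to low 5 (log2 fold change -2.61, SE 1.03, adjusted p = 0.168), with low 4 again the highest. Oasl1, which restrains IRF7 translation, averaged 25.2 ± 11.3 CPM in the high group and 191 ± 239 CPM in the low group (SD, n = 5 each) (log2 fold change -2.93, SE 0.87, adjusted p = 0.08). Eif2ak2 had one of the smallest changes (log2 fold change -0.48, SE 0.37, adjusted p = 0.496). Oas1a averaged 40.7 ± 32.3 CPM in the high group and 152 ± 121 CPM in the low group (SD, n = 5 each) (log2 fold change -1.90, SE 0.77, adjusted p = 0.181). Its transcript matches Oas1g over 100% of its length at 97.6% identity, so its level may include reads of that copy.

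The MX proteins are GTPases that trap viral nucleocapsids, and many laboratory mouse strains carry a defective Mx1. Mx1 was at 1.93, 6.06, 1.02, 4.41 and 0.0998 CPM in high 1 to high 5 and 5.92, 25.8, 90.2, 89.8 and 0.327 CPM in low 1 to low 5 (log2 fold change -3.98, SE 1.26, adjusted p = 0.0966). Mx2 was at 24.2, 23.3, 8.47, 31.3 and 1.16 CPM in high 1 to high 5 and 14.8, 93.4, 110.4, 199.7 and 5.17 CPM in low 1 to low 5 (log2 fold change -2.26, SE 0.96, adjusted p = 0.2). In high 5 Mx1 rested on 3 reads, and low 3 and low 4 were nearly equal for Mx1 but not for Mx2. DESeq2 called Mx1 lower (adjusted p = 0.0155) and not Mx2, and limma-voom called neither. Some 34% of the Mx2 transcript matches Mx1 at 95.9%.

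Further effectors included the genes with the widest ranges between clones. Ifi44, an antiviral protein with a GTP-binding domain, was at 4.72, 13.6, 0.378, 4.06 and 0.0666 CPM in high 1 to high 5 and 3.42, 40.7, 80.3, 246 and 0.871 CPM in low 1 to low 5. The lowest and highest libraries were 10.63 apart on the log2 scale, the widest span of any member (log2 fold change -4.03, SE 1.47, adjusted p = 0.138). Ifi44 rested on 2 reads in high 5 and 10 in high 3, so the lower end of this span depends on the prior count. Trim30a, a TRIM protein, was at 9.6, 15.3, 0.151, 18.4 and 0.0998 CPM in high 1 to high 5 and 7.23, 57.3, 72.8, 132 and 3.54 CPM in low 1 to low 5 (log2 fold change -2.65, SE 1.26, adjusted p = 0.252). Sp100, a nuclear body protein, was at 6.05, 6.23, 0.34, 14.8 and 0 CPM in high 1 to high 5 and 6.78, 46.99, 43.6, 69.9 and 3.54 CPM in low 1 to low 5 (log2 fold change -2.64, SE 1.19, adjusted p = 0.228). For both genes high 3 and high 5 stood apart from the other high clones at or below 0.34 CPM. Trim30a rested on 4 reads in high 3 and 3 in high 5, and Sp100 on 9 in high 3. Sp100 had no read in high 5, where 3 reads would be 0.0998 CPM. Low 5, although low, kept 3.54 CPM of each.

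Several effectors were abundant. Bst2 (tetherin), which holds budding virions on the cell surface, averaged 254 ± 138 CPM in the high group and 858 ± 692 CPM in the low group (SD, n = 5 each), and Ifitm3, which blocks fusion of endocytosed virus, averaged 352 ± 223 CPM in the high group and 828 ± 609 CPM in the low group (SD, n = 5 each). Per kilobase of annotated exon, Ifitm3, Bst2 and Isg15 were the highest members, at means of 519, 282 and 312 CPM per kb in the high group and 1221, 950.5 and 927 CPM per kb in the low group. Herc6, Iigp1 and Sp100 were the lowest in the low group, at 3.41, 3.57 and 4.52 CPM per kb. Samd9l, Rtp4, Xaf1 and Ifi35 had log2 fold changes from -1.42 to -0.997, with adjusted p from 0.22 to 0.425. Of the 11 genes in this group, which includes Rsad2, edgeR called 1, DESeq2 3 and limma-voom 0, and the median log2 fold change was -1.42.

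Ifi27 departed most from the shared order. It was at 115, 176, 176, 227 and 13.01 CPM in high 1 to high 5 and 229, 297, 218, 96.4 and 159 CPM in low 1 to low 5. High 5 was again the lowest, but low 4, the top library for most members, was the second lowest and low 2 the highest (log2 fold change -0.50, SE 0.56, adjusted p = 0.671).

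The PARP enzymes and the ligase Dtx3l, which pairs with Parp9, had differences of like size. Log2 fold changes of Parp9, Parp12, Parp14 and Dtx3l ran from -1.93 to -1.45. With edgeR 4 of 4 had an unadjusted p under 0.05 (11% of all genes were lower at that p). After adjustment edgeR called 0, DESeq2 2 and limma-voom 0. Parp9 averaged 83.4 ± 42.2 CPM in the high group and 250.5 ± 183 CPM in the low group (SD, n = 5 each). Parp9 and Dtx3l share 458 exonic bases on opposite strands, and the labels do not say whether the counting used strand.

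The guanylate-binding proteins and the immunity-related GTPases attack the vacuoles of intracellular pathogens and are typical targets of interferon-gamma as well. Their 6 members (Gbp2, Gbp3, Gbp7, Igtp, Irgm1 and Iigp1) lay at a median log2 fold change of -2.25, from -2.45 to -1.68. With edgeR 5 had an unadjusted p under 0.05 (11% of all genes were lower at that p), and adjusted p ran from 0.181 to 0.259. DESeq2 called 1 of the 6 and limma-voom 0. Gbp3 averaged 21.6 ± 18.6 CPM in the high group and 117 ± 135 CPM in the low group (SD, n = 5 each), and Irgm1 averaged 78.8 ± 71.97 CPM in the high group and 281 ± 213 CPM in the low group (SD, n = 5 each). In both genes low 1 and low 5 lay below low 2, low 3 and low 4, and inside the range of the high libraries.

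Ccl5, the second chemokine of the set, draws T cells and monocytes. It was at 38.8, 12.4, 6.77, 8.51 and 3.06 CPM in high 1 to high 5 and 50.6, 38.6, 111, 133 and 9.69 CPM in low 1 to low 5 (log2 fold change -2.31, SE 0.77, adjusted p = 0.11). High 1 stood above the other high clones here, at the level of low 2. DESeq2 called Ccl5 lower in high heteroplasmy (adjusted p = 0.0083), and limma-voom did not (adjusted p = 0.119).

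**Figure D3:**
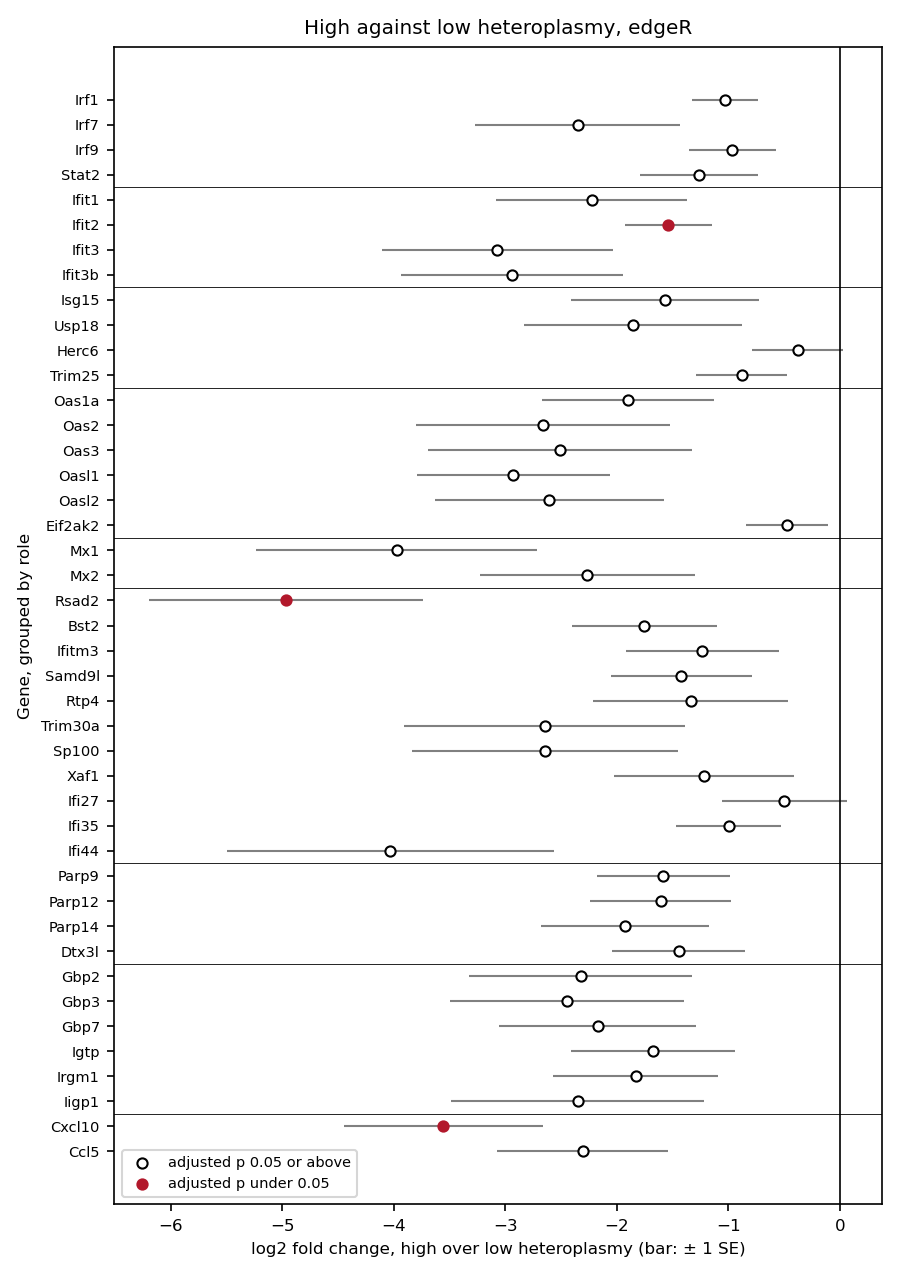
Log2 fold change of the 43 genes, high over low heteroplasmy, from edgeR (x axis), with bars of 1 SE and genes grouped by role on the y axis. All 43 lie below 0, and the 3 filled points (Ifit2, Rsad2 and Cxcl10) passed an adjusted p of 0.05.

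Members varied together across clones even with the group difference taken out. With each group's mean removed, the median Pearson correlation over the 10 libraries was 0.903 for the 903 pairs of members and 0 for all 84026166 pairs of tested genes. A correlation above 0.8 was seen in 80.6% of member pairs and in 1.08% of all pairs. The points are the same 10 libraries for every pair, so these values describe the clones and carry no p. Isg15 and Ifitm3 had the closest course (r = 0.996), followed by Usp18 and Oas1a (0.991) and Oas1a and Oas2 (0.99). Ifit3 and Ifit3b (0.989), by contrast, share sequence.

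Parp9 was the most typical member, with a median correlation of 0.954 to the others, and 39 members had a median above 0.8. The 4 that did not were Ifi27 (0.394), Ifit2 (0.721), Irf1 (0.75) and Ccl5 (0.784). The lowest pair was Ifit2 with Ifi27 (-0.0419), the only one of 903 below 0.

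**Figure D4:**
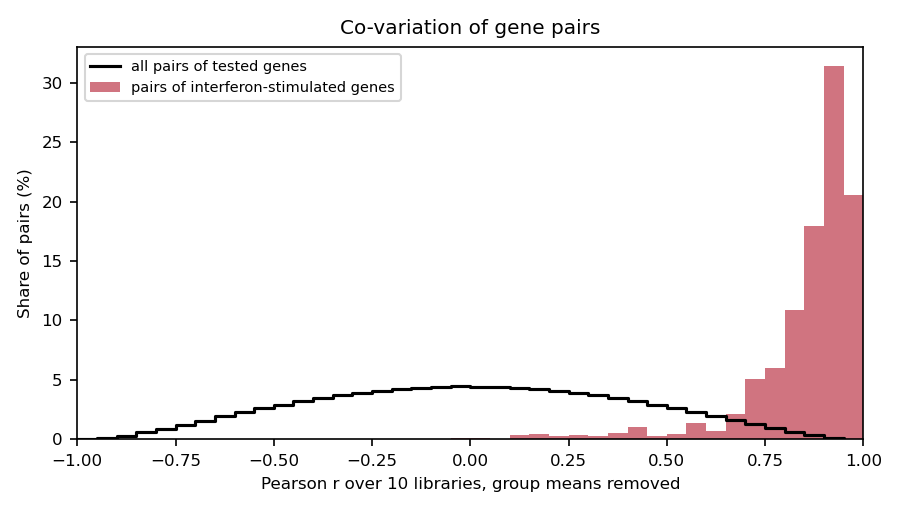
Distribution of Pearson correlations over the 10 libraries, with group means removed, for the 903 pairs of interferon-stimulated genes (filled) and for all pairs of tested genes (line), as a share of pairs in each bin. The filled bars gather above 0.8 and the line is centred at 0.

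Outside the members, the genes whose course over the 10 libraries was most like theirs were Oas1b (r = 0.993 with the members' mean z-score), Ifi211 (0.985), Gm12185 (0.98), Uba7 (0.98), Trim21 (0.978), Tgtp1 (0.976), Gm6548 (0.976), Ddx60 (0.975), Ddx58 (0.973) and Ifi204 (0.971). This correlation kept the group means, unlike that of the member pairs above. They were the top 10 of 12140 candidates with a mean of at least 1 CPM, and 7 of them were in the wider interferon lists used here. Of all candidates, 66 were in the list of further interferon-stimulated genes, and 40 of these were in the top 100. Oas1b was at 2.73 to 15.9 CPM in the high group and 5.66 to 60.9 CPM in the low group. A wider list of 67 further interferon-stimulated genes showed 64 log2 fold changes below 0 (47.7% of all genes) and a median of -1.07. Of the 67, 32 were lower at an unadjusted p of 0.05 with edgeR (11% of all genes). None of the 67 passed with edgeR after adjustment (2.87% of all genes were called lower), and limma-voom called 1 lower (3.36% of all genes). DESeq2, which tested 77 genes of the list, called 21 lower (5.65% of the genes it tested). Among these, Ifi209 (adjusted p = 1.77e-06) and Epsti1 (adjusted p = 8.28e-05), which the edgeR filter left out, had all 5 high libraries below all 5 low ones, and they were picked out here after their values were seen. Its 2 smallest p-values were those of Cmpk2, a mitochondrial nucleotide kinase that neighbours Rsad2 in the genome (log2 fold change -4.49, SE 1.30, adjusted p = 0.0752), and Ly6e (log2 fold change -1.72, SE 0.50, adjusted p = 0.0758).

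Type I interferon transcripts were scarce, and most of their reads came from the same clones. Of 21 interferon genes listed, 13 were in the count table, and all of these are type I genes. Of the 13, 0 passed the expression filter of edgeR and 4 had no read in any library. Summed over the 13, the high libraries held 5, 2, 3, 3 and 1 reads, and low 1 to low 5 held 5, 13, 56, 120 and 2. Ifnb1, the interferon that fibroblasts make first, had 1, 0, 0, 1 and 0 reads in high 1 to high 5 and 3, 9, 27, 45 and 0 in low 1 to low 5. Ifna4 had 0, 1, 0, 0 and 0 reads in the high libraries and 1, 2, 24, 50 and 0 in the low ones. These are the libraries with the highest member levels, with low 4 above low 3 and low 3 above low 2. The filter of edgeR leaves these genes out, while DESeq2 tested 2 of the 13, Ifnb1 and Ifna4, and called both lower in high heteroplasmy (adjusted p = 0.00259 and 0.0057). The groups overlapped, since low 5 had no read of either gene. The Ifna genes are close copies among which reads may be misassigned.

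**Figure D5:**
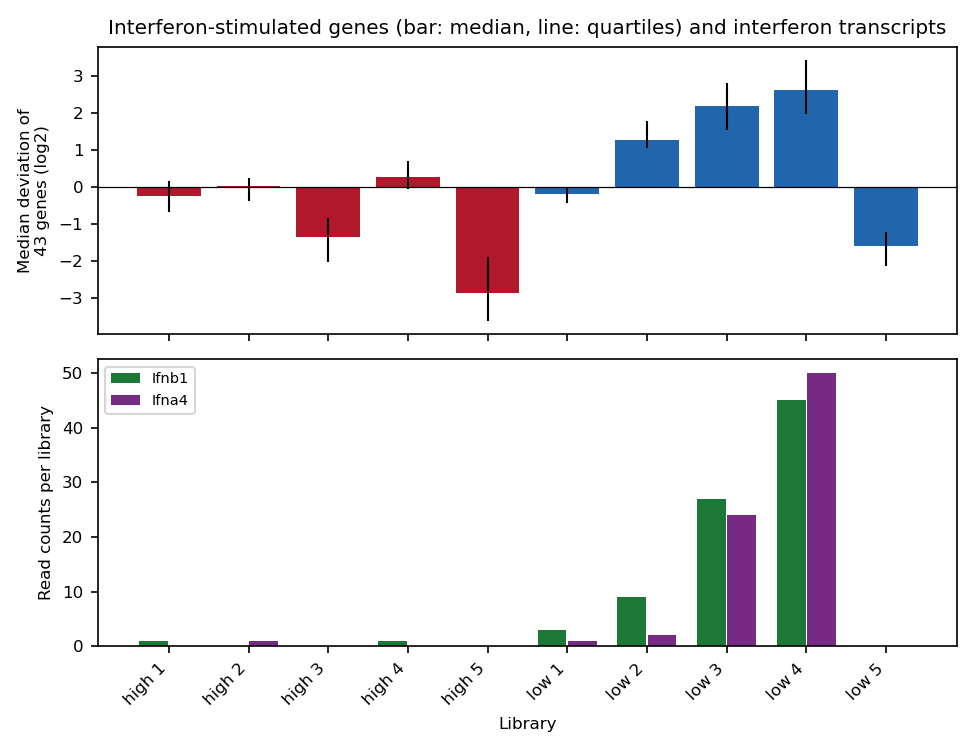
For each library, the upper panel shows the median log2 deviation of the 43 members from their own means (bar, with a line from the lower to the upper quartile of the members), and the lower panel the read counts of Ifnb1 and Ifna4. Low 4, low 3 and low 2 have the highest bars in the upper panel (2.60, 2.17 and 1.26) and the most Ifnb1 reads (45, 27 and 9).

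Of the receptor chains and their kinases, none of 9 genes passed with edgeR, DESeq2 or limma-voom. With edgeR 1 was higher at an unadjusted p under 0.05 (10.6% of all genes), and the median log2 fold change was 0.11. Ifnar1 had a log2 fold change of 0.11 (adjusted p = 0.718) and Ifnar2 of 0.13 (adjusted p = 0.815). Jak1, which had the smallest p-value of the list, was at 112, 198, 214, 183 and 240.2 CPM in high 1 to high 5 and 113, 134, 133, 135 and 123 CPM in low 1 to low 5 (log2 fold change 0.57, SE 0.19, adjusted p = 0.101). Its lowest library was high 1. With group means kept, the correlation of these 9 genes with the members' mean z-score had a median of 0.0619. Ifnlr1, the receptor chain for interferon-lambda, followed with high 1 far above the others at 15.8 CPM (log2 fold change 1.22, SE 0.82, adjusted p = 0.427).

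Among 6 further STAT and IRF factors none passed with edgeR, DESeq2 or limma-voom, and 1 was lower at an unadjusted p of 0.05 (11% of all genes). Irf2 (log2 fold change -0.65, SE 0.22, adjusted p = 0.116) and Irf5 (log2 fold change -1.32, SE 0.70, adjusted p = 0.304) had the 2 smallest p-values. Irf2 lies on chromosome 8, whose genes had a median shift of -0.57 on the log2 scale between groups. Its fold change ran from -0.80 to -0.08 under the alternatives other than leaving out 1 library. The brakes on the pathway, 8 genes, had a median change of -0.14 on the log2 scale, with 0 called by the 3 tools. With edgeR 2 were lower at an unadjusted p of 0.05 (11% of all genes), namely Socs1 (log2 fold change -1.26, SE 0.49, adjusted p = 0.158) and Adar (log2 fold change -0.97, SE 0.39, adjusted p = 0.171).

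The lists of sensors and of antigen processing genes each held 1 gene that edgeR called lower (2.87% of all genes were called lower). Of 12 nucleic acid sensors and adaptors, edgeR called Tlr3, the endosomal sensor of double-stranded RNA, lower in high heteroplasmy, and DESeq2 called 2 and limma-voom 0. Tlr3 was at 21.1, 13.4, 8.97, 20.005 and 6.85 CPM in high 1 to high 5 and 31.2, 70.6, 77.5, 197 and 20.2 CPM in low 1 to low 5 (log2 fold change -2.50, SE 0.59, adjusted p = 0.0383). Ifih1 (MDA5), a cytosolic RNA sensor, followed (log2 fold change -1.64, SE 0.62, adjusted p = 0.151). Of 8 antigen processing genes, edgeR called Psmb10, a subunit of the immunoproteasome, at 46.9, 39.7, 31.97, 69.1 and 19.9 CPM in high 1 to high 5 and 100.2, 133, 284, 382 and 47.96 CPM in low 1 to low 5 (log2 fold change -2.19, SE 0.54, adjusted p = 0.0432), and DESeq2 called 2 and limma-voom 0. Nlrc5, which drives MHC class I genes, was next (log2 fold change -2.93, SE 0.79, adjusted p = 0.0588). Tlr3, Psmb10 and Nlrc5 all lie on chromosome 8, whose genes had a median shift of -0.57 on the log2 scale between groups. With each chromosome's shift taken out, Tlr3 had an adjusted p of 0.116 and Psmb10 of 0.132.

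Among the members, Bst2 lies on chromosome 8. Irf9 lies on chromosome 14, which had a median shift of -0.40, and its own log2 fold change was -0.96. The chromosomes holding most members had shifts of 0.00 (chromosome 5, with Oas1a, Oas2, Oas3, Oasl1, Oasl2 and Cxcl10), 0.02 (chromosome 19, with the 4 IFIT genes), 0.05 (chromosome 11) and 0.21 (chromosome 16, with Mx1 and Mx2). Chromosome 3, with Ifi44, Gbp2, Gbp3 and Gbp7, had a shift of -0.09. On chromosomes 6 and 16 the median gene was higher in the high group by 0.30 and 0.21, and the members there had medians of -1.51 and -1.76. With each chromosome's shift taken out of every library, edgeR called 0 of the 43 members, 29 were lower at an unadjusted p of 0.05, and 164 of all 12964 genes were called. The share of all genes at that unadjusted p was not computed in this fit. The part of these shifts in the members' values was not tested otherwise.

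Library totals ran from 17318372 to 28208576 counts, and the fewest were in low 1. Low 2 and low 3 stood apart in Gm42418, a transcript model that overlaps a ribosomal RNA repeat, at 40941 and 8017 CPM against 745 to 1616 CPM elsewhere. Low 4, where 36 members peaked, was at 1556.5 CPM. Without low 2 and low 3, no member was called by edgeR (56 of all 13521 genes were, in either direction), 9 were lower at an unadjusted p of 0.05, and the median log2 fold change was -1.58. At that unadjusted p the share of all genes was not computed. Of the fibroblast markers, Col1a1 was at 3310.2 CPM or more in every library, while Lum was at 0 or 1 read and Dcn and Thy1 were at or near 0 in some clones. Dcn, a collagen-binding proteoglycan, showed a log2 fold change of -3.59 ± 0.95 (SE), which edgeR did not call (adjusted p = 0.0534). S100a4 stood at 0.59 (adjusted p = 0.423), and 11 of the 13 listed markers were tested by edgeR, with 0 called, and limma-voom called 1, Dcn. DESeq2 tested 12 and called Dcn lower and Thy1 higher in the high group (adjusted p = 0.00164), with 1118 reads of Thy1 in high 1. Summed, the fibroblast list was at 10710 to 21330 CPM in the high group and 12780 to 15040 CPM in the low group. Of 14 immune markers edgeR tested 2, Cd68 (log2 fold change 1.05, adjusted p = 0.237) and Cd14 (log2 fold change -0.32, adjusted p = 0.653). The other immune markers stood at 2.11 CPM or less and Ptprc had no read. DESeq2 tested 4 and called Flt3 lower in the high group (adjusted p = 9.81e-05), with at most 37 reads in a library. The summed level of the immune list was 21.3 to 95.2 CPM in the high group and 25.9 to 42.5 CPM in the low group. The epithelial list summed to 113 to 509.6 CPM in the high group and 453.7 to 672.2 CPM in the low group. Its 8 genes included Krt18, called higher (log2 fold change 7.95, SE 1.18, adjusted p = 0.00895), and Krt19 (log2 fold change -1.39, SE 0.36, adjusted p = 0.0509). Of the 4 epithelial genes that edgeR tested, 3 were below 0, all at an unadjusted p under 0.05 (11% of all genes), and the median log2 fold change was -1.38. DESeq2 tested 6 and called 4 lower and 1 higher, and limma-voom called 1 lower. Endothelial markers summed to 2.13 CPM or less, with no read of Cdh5. The part of these markers and of Gm42418 in the results was not tested.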

How the data were processed

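Poly(A) RNA of 10 fibroblast populations was read as 50 bp pairs from libraries of a directional kit, per the labels' protocols. The deposited raw count table holds whole-number read counts per Ensembl gene, with 1 column per library made by the authors. STAR 2.7.8a, DESeq2 1.36.0, R 4.2.1 and GRCm38 are named in the submitters' processing notes, without their roles. No source used here gives the counting tool or its strand setting. The authors' normalized table was not used.

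Genes were named with GENCODE M21. This left 195 identifiers without a name, with at most 0.0701% of a library's counts. All genes were tested together by edgeR 4.0.16 (R 4.3.3), modelling only the group, after the default expression filter, TMM scaling, robust quasi-likelihood F-tests (two-sided) and Benjamini-Hochberg adjustment. The threshold was 0.05. The SE of a fold change is the log2 value divided by the root of F. DESeq2 1.42.0, limma-voom (limma 3.58.1), other scalings and filters, blocks, a chromosome offset and left-out libraries were alternatives. CPM divide a gene's count by its library's TMM-adjusted total, and log2 CPM used a prior count of 2. Transcripts were compared with blastn 2.17.0, and promoter windows come from RefSeq on GRCm38.p6. With 5 libraries a group, p-values weigh the difference between groups against the spread between these clones.

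The members and the lists were chosen with earlier results of these data known. Printed library by library were the transcription factors, every called member and the 10 members of widest range, with Ccl5 and Ifi27 added after their values were seen. In other lists, called genes and the 2 of smallest p were named, and the others named there (Ifnar1, Ifnar2 and marker genes) were chosen for their role.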

Additional observations from a re-analysis of the deposited data

How the results depend on the processing

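No result changed direction under the alternatives: all 43 members stayed below 0 in every fit. The number called lower, 3 with edgeR, was 14 with DESeq2 and 6 at an adjusted p of 0.1 (5.43% of all genes). It was 0 with limma-voom, with no filter on low counts, with an offset per chromosome and without low 2 and low 3. It was also 0 with the number in the sample codes as a block. High 3 and high 4 share such a number with no low clone and add nothing to the fold change there. At an unadjusted p of 0.05 these fits had 8, 16, 29, 9 and 5 members lower. The share of all genes at that p was computed only for the main fit (11% lower, with 30 of the 43 members). After adjustment these fits called 5.1, 2.12, 1.27, 0.414 and 3.69% of all genes in either direction. Leaving out 1 library at a time gave 0 to 5 calls, with 0 in the fits without high 2, high 3, high 5, low 2, low 3 or low 4 and 5 without low 5 (Cxcl10, Ifit2, Irf1, Oasl1 and Rsad2; 2.82% of all genes were called there in either direction). Without high 1 the calls were Ccl5 and Irf1 (6.25% of all genes), without high 4 Rsad2 (6.1%) and without low 1 Ifit2 (1.8%). The 6 fits with no member called had 1.76 to 3.27% of all genes called.

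Calls in the higher direction were 0 in every fit. The median log2 fold change ran from -2.18 to -1.47 with 1 library left out and from -2.24 to -1.58 under the other alternatives. The median correlation of pairs ran from 0.854 to 0.925 and from 0.867 to 0.914. The labels give the groups the same replicate numbers, and libraries of 1 number had correlated deviations of 0.455, -0.0528, 0.0326, 0.0739 and 0.16, so the numbers were not taken as pairs. A replicate block gave 3 calls, but of Irf9, Oas1a and Rsad2, with Ifit2 at an adjusted p of 0.141 and Cxcl10 at 0.102. Depth limits the interferon genes: none passed the edgeR filter, and DESeq2 tested 2.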
